A study of Mus musculus with 5 samples.

Results

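Transcripts of 38 mouse genes of the apoptosis pathway were examined in sorted sympathetic neurons of control and *Hif1aCKO* embryos at E14.5. The genes were taken by name as the *Bcl2* family, the mitochondrial proteins released in apoptosis, the apoptosome and caspases, the inhibitors of caspases, the p53 family, and the death receptors, and each was matched to the count table by its Ensembl identifier. Of the 20224 genes in the table, 36 belonged to this list, and 33 of these were among the 15032 genes with enough counts for a test. Rows for *Trp73* and *Fas* were not analysed here.

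Controls were represented by replicates 5 and 6 (2 libraries) and *Hif1aCKO* by replicates 3, 4, and 5 (3 libraries), each made from 100 cells of dissected sympathetic ganglia. Values for each genotype are given below in this order of replicates. All embryos carried *Isl1Cre*, a knock-in that expresses Cre where *Isl1* is active, the *tdTomatoAi14* reporter that Cre switches on, and *Prph-eGFP*, a transgene that labels peripheral neurons. Control-Ai14;Prph-eGFP embryos were *Hif1a loxP/+*, and *Hif1aCKO*-Ai14;Prph-eGFP embryos were *Hif1a loxP/loxP*, with exon 2 of *Hif1a* floxed. Controls could therefore lose 1 *Hif1a* allele in the sorted cells. The series' design text describes controls without Cre, but cells without Cre would lack the tdTomato on which they were sorted. *Isl1Cre* also acts in other *Isl1* lineages of the embryo, and the embryos came from pregnancies without diabetes. The comparison addresses how loss of *Hif1a*, which encodes the oxygen-regulated subunit of the transcription factor HIF-1, alters developing sympathetic neurons.

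Sympathetic neurons are overproduced in the embryo, and those that receive too little nerve growth factor later die by the mitochondrial pathway of apoptosis. In that pathway BH3-only proteins relieve the block that pro-survival *Bcl2* proteins place on Bax and Bak, cytochrome c leaves the mitochondria, and Apaf1 binds it and assembles the apoptosome that activates caspase-9. Inhibitor of apoptosis proteins such as Xiap hold active caspases in check, and p53 can switch on several BH3-only genes. HIF-1 binds DNA at sites with the core ACGTG or GCGTG, and only ACGTG was searched for here.

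The promoters of both apoptosome genes, *Apaf1* and *Casp9*, are shown because these genes had the lowest values in *Hif1aCKO* libraries relative to controls among the members with over 50 counts in every library. Each line gives the 250 bases before the RefSeq start site on GRCm38.p6, 5′ to 3′ on the gene's strand, at chr10:91082744-91082993 (minus strand) for *Apaf1* and at chr4:141793362-141793611 (plus strand) for *Casp9*. Capitals mark the ACGTG core, here read on the opposite strand as CACGT.

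Apaf1: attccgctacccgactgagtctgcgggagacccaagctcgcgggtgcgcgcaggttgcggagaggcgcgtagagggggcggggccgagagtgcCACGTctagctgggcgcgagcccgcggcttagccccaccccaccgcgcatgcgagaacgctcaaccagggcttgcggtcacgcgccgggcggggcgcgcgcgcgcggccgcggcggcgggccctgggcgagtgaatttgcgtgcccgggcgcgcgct

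Casp9: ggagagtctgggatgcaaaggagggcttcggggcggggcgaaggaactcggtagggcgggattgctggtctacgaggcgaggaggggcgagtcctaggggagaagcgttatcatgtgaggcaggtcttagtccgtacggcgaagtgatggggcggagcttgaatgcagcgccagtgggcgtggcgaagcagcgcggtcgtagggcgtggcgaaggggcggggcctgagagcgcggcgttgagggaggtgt

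The *Apaf1* promoter held 1 ACGTG core, starting at position -157 from the RefSeq start site, which lies 27 bases from the start in the annotation used for counts here. The *Casp9* promoter held no ACGTG, but GCGTG was not searched for, so the promoters are not contrasted for HIF-1 sites. Both strands were searched over windows of 250 bases before to 50 bases after each RefSeq start. ACGTG was found in 11 of 47 promoters of the members (23.4%) and in 19.6% of all 32851 promoters. The 11 genes were *Apaf1*, *Bax*, *Bbc3*, *Bmf*, *Casp6*, *Cycs*, *Endog*, *Fadd*, *Fas*, *Trp53*, and *Xiap*. The p53 half-site, a motif added after the other choices had been made, was found in 5 member promoters (10.6%), those of *Bax*, *Birc2*, *Bmf*, *Mdm2*, and *Trp53*, and in 8.36% of all promoters. These matches describe the letters of the windows only.

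*Hif1a* itself had normalized counts, which are counts scaled to a common library size, of 2086 and 1584 in controls and of 2747, 1757, and 2135 in *Hif1aCKO* libraries. Counts over the whole gene do not check the loss of exon 2. *Isl1*, the locus of the Cre knock-in, had 12577 and 14019 in controls and 8634, 7800, and 8722 in *Hif1aCKO* libraries. Its log2 fold change was -0.67 ± 0.10 (SE), with an adjusted p of 0.446 with edgeR and 0.000214 with DESeq2. Whether this difference relates to the Cre allele was not tested. Total counts ranged from 8254211 to 9700887. Summed sympathetic neuron markers, all 14 detected, were at 101450 to 121802 in controls and at 87384 to 90015 in *Hif1aCKO* libraries. *Hif1aCKO* replicate 3 stood apart in its summed glial markers, at 1199 against 30.6 to 55.2 in the other 4 libraries, with 5 of 8 glial markers analysed here, and fold changes without it are given below for 10 genes. Summed G2/M phase genes were at 34666 to 40104 in controls and at 50947 to 67072 in *Hif1aCKO* libraries, and all 22 had a higher mean. Endothelial markers summed to 54.5 to 88.1 and mesenchymal markers to 26.3 or less in every library, with 3 of 7 and 5 of 9 markers analysed here. Of 10 erythroid and blood markers 1 was analysed here, *Alas2*, at 8.33 and 13.9 in controls and 15.0, 31.0, and 25.3 in *Hif1aCKO* libraries. Dissociation response genes overlapped between genotypes (3054 to 4233 in controls and 3416 to 3770 in *Hif1aCKO* libraries). Control replicate 5 and *Hif1aCKO* replicate 3 were female by *Xist* and Y-linked counts, and the other 3 libraries male. The part of glial or blood RNA, the cell cycle, and sex in the results below was not tested, other than by leaving out *Hif1aCKO* replicate 3 and by a fit with a sex term.

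Most of the apoptosis genes had similar counts in both genotypes. Of the 33 members tested, 15 had a higher and 18 a lower mean in *Hif1aCKO* libraries, the median log2 fold change was -0.03 beside 0.01 over all 15032 genes, and 26 members lay within 0.5 of no difference on the log2 scale. None of the members, and 0.0% of all genes, passed the thresholds of an adjusted p of 0.05, a log2 fold change beyond 0.3, and a mean of at least 50 normalized counts with edgeR's quasi-likelihood test. DESeq2 with the same thresholds called 60 of 15478 genes (0.388%) and 0 members. With 100 cells and 2 or 3 libraries per genotype, a miss does not show that a gene did not differ, and in bulk libraries fewer cells that express a gene cannot be told apart from less RNA per cell.

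At an unadjusted p of 0.05, 2 members were lower, *Apaf1* and *Birc2*, beside 3.85% of all genes lower, and 1 was higher, *Xiap*, beside 3.83% of all genes higher. *Apaf1* kept such a p in all 13 alternative fits, *Xiap* in 9, and *Birc2* in 3. In 6 members (18.2%) the genotypes did not overlap in any library. *Apaf1*, *Casp9*, *Birc2*, and *Endog* lay below both controls in each *Hif1aCKO* library, beside 12.9% of all genes, and *Xiap* and *Htra2* were higher, beside 12.9% of all genes. In all, 25.7% of the genes tested did not overlap, and with upper-quartile factors 8 members (24.2%) and 25.9% of all genes did not, so that the members were not apart more often than other genes. For a single gene, the 10 splits of 2 against 3 libraries allow no exact permutation p below 0.1.

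**Figure D1:**
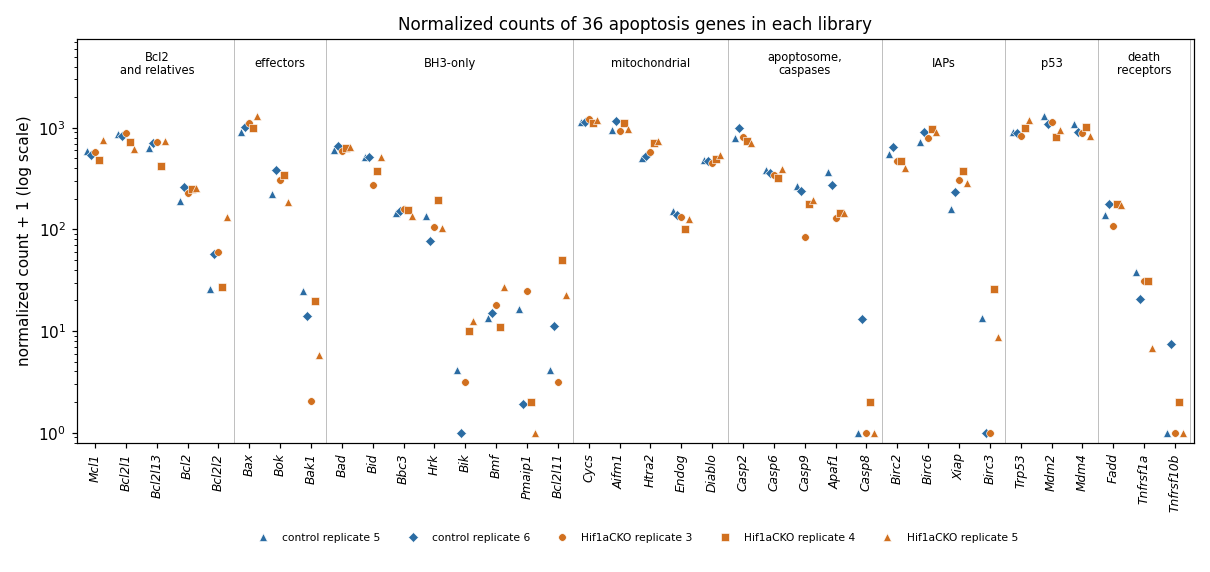
Normalized counts plus 1, on a log axis, of the 36 apoptosis genes with a row, in the 2 control libraries (blue) and the 3 *Hif1aCKO* libraries (orange), grouped by role (IAPs, inhibitor of apoptosis proteins). Most genes overlap between genotypes, while *Apaf1*, *Casp9*, *Birc2*, and *Endog* are lower and *Xiap* and *Htra2* higher in each *Hif1aCKO* library.

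Genes can be compared with each other only per length, so normalized counts were divided by the kilobases of annotated exon. On this scale *Bax* had the highest counted level, with a mean of 680 ± 97.0 over the 5 libraries (SD, n = 5). *Cycs*, which encodes cytochrome c, was second at 340 ± 12.1. Reads that matched several places equally well were not counted, so a gene with close copies can be understated. *Aifm1*, *Bad*, *Trp53*, *Mdm2*, and *Htra2* followed at 257, 244, 238, 210, and 207 per kilobase. *Apaf1* ranked 25 of 36 at 23.4 ± 11.6, and *Casp9* ranked 21 at 37.0 ± 13.8. In this order 32 of the 35 neighbouring pairs overlapped between libraries, so only the steps from *Bax* to *Cycs*, from *Cycs* to *Aifm1*, and from *Mdm4* to *Fadd* were separate. There were 22 members with over 100 counts in every library and 9 with under 50 counts in every library.

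The pro-survival *Bcl2* proteins, here *Bcl2*, *Bcl2l1*, *Bcl2l2*, and *Mcl1*, bind Bax, Bak1, and BH3-only proteins and keep the mitochondrial membrane intact. *Mcl1* had normalized counts of 596 and 544 in controls and of 579, 484, and 763 in *Hif1aCKO* replicates 3, 4, and 5. *Bcl2l1*, which encodes Bcl-xL, had 863 and 827 in controls and 880, 727, and 614 in *Hif1aCKO* libraries. *Bcl2l13*, a relative in the outer mitochondrial membrane that is known from apoptosis and mitophagy rather than as a survival factor, was grouped with them and had 626 and 713 in controls and 731, 418, and 746 in *Hif1aCKO* libraries. The genotypes overlapped for each of these genes, with log2 fold changes of 0.09 ± 0.23 (SE) for *Mcl1*, -0.19 ± 0.19 for *Bcl2l1*, and -0.08 ± 0.26 for *Bcl2l13*. *Bcl2* ranged from 189 to 263 normalized counts and *Bcl2l2* from 25.0 to 130 over the 5 libraries, and both overlapped too. All 5 genes of this class had a row and were tested, and the median log2 fold change was 0.09 with and 0.10 without *Bcl2l13*.

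Bax and Bak1 form the pores that open the outer mitochondrial membrane, and Bok is a relative of both. *Bax* had 912 and 1017 normalized counts in controls and 1117, 1002, and 1313 in *Hif1aCKO* replicates 3, 4, and 5, with a log2 fold change of 0.25 ± 0.18 (SE). Its *Hif1aCKO* replicate 4 lay between the controls. *Bok* had 224 and 382 in controls and 306, 343, and 185 in *Hif1aCKO* libraries. *Bak1* was scarce, with 23 and 14 counts in controls and 1, 19, and 5 in *Hif1aCKO* libraries. Expression of the effector class was thus carried by *Bax*, which made up 80.8% of its summed level per kilobase.

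BH3-only proteins sense damage or lack of survival factors and trigger the pathway. *Bad*, the most abundant of the 8 genes per kilobase, had 602 and 662 normalized counts in controls and 595, 628, and 639 in *Hif1aCKO* libraries, and its log2 fold change was -0.03 ± 0.17 (SE). *Bid*, which links death receptors to mitochondria, had 512 and 519 in controls and 274, 371, and 521 in *Hif1aCKO* replicates 3, 4, and 5. Replicates 3 and 4 were below the controls and replicate 5 was level with them, and the log2 fold change was -0.41 ± 0.28, or -0.21 without *Hif1aCKO* replicate 3. *Bcl2l13* lies opposite 17.7% of the exonic bases of *Bid*. *Bbc3*, the p53 target that encodes Puma, had 144 and 149 in controls and 158, 154, and 134 in *Hif1aCKO* libraries, with a log2 fold change of 0.02 ± 0.29.

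*Hrk* and *Bcl2l11*, which encodes Bim, are BH3-only genes known to be induced when sympathetic neurons are deprived of nerve growth factor. *Hrk* ranged from 75.1 to 196 normalized counts, and its highest library was *Hif1aCKO* replicate 4. *Bcl2l11* had 3 and 11 counts in controls and 2, 49, and 22 counts in *Hif1aCKO* replicates 3, 4, and 5, with a log2 fold change of 1.83 ± 1.33 (SE). Its genotypes overlapped through *Hif1aCKO* replicate 3, the library with the glial signal, and the log2 fold change without it was 2.37. Leaving out any 1 library gave values from 1.23 to 2.90, so that with such low counts the size of the difference is uncertain.

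*Bmf*, *Pmaip1*, and *Bik* were near the limit of detection. *Bmf* had 10 to 27 counts. *Pmaip1*, which encodes the p53 target Noxa, had 15 and 1 counts in controls and 22, 1, and 0 in *Hif1aCKO* libraries. The libraries with 15 and 22 counts were the female ones of each genotype. *Bik* did not pass the filter on low counts, with 3 and 0 counts in controls and 2, 9, and 12 in *Hif1aCKO* libraries. A count of 0 in 1 library allows up to 3 counts, so none of these genes can be called absent, and such limits cover counting error only.

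The proteins released from mitochondria are cytochrome c, which is needed by the apoptosome, Diablo and Htra2, which relieve inhibition of caspases, and Aifm1 and Endog, which act on DNA in the nucleus. *Cycs* was the steadiest of the abundant members, with 1146 and 1132 normalized counts in controls and 1213, 1113, and 1190 in *Hif1aCKO* libraries. *Aifm1* had 956 and 1158 in controls and 931, 1117, and 982 in *Hif1aCKO* libraries. *Diablo* ranged from 445 to 540 and overlapped. Reads that match *Cycs* and other places equally well were not counted, so its level may be understated. For *Diablo*, 21.5% of the exonic bases lie opposite *B3gnt4* and 19.3% are shared with *Gm49027* on the same strand. The counts of *Diablo* thus rest on part of the gene if reads that fit 2 genes were left out.

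*Htra2*, a serine protease that also serves mitochondrial quality control, had 505 and 528 normalized counts in controls and 574, 701, and 735 in *Hif1aCKO* replicates 3, 4, and 5 (chr6:83051266-83055273, minus strand). All 3 *Hif1aCKO* libraries were above both controls, and the log2 fold change was 0.38 ± 0.19 (SE; adjusted p = 0.694 with edgeR). It was 0.47 without *Hif1aCKO* replicate 3. *Aup1* and *Loxl3* lie opposite 25.6% and 18.2% of its exonic bases. The counts of *Htra2* thus rest on part of the gene if reads that fit several genes were left out. *Endog* was lower in all 3 *Hif1aCKO* libraries, at 133, 98.9, and 125 against 152 and 136, but the log2 fold change of -0.28 was smaller than its standard error of 0.32, and 35.7% of its exonic bases lie opposite *Spout1*.

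In the apoptosome and caspase class, both *Apaf1* and *Casp9* lay apart between genotypes. *Apaf1* (chr10:90989311-91082770, minus strand), the scaffold of the apoptosome, had 369 and 270 normalized counts in controls and 129, 143, and 145 in *Hif1aCKO* libraries. The 3 *Hif1aCKO* libraries lay close together, with a mean of 139 ± 8.86 (SD, n = 3), and all were below both controls, with a mean of 319 ± 69.9 (SD, n = 2). The log2 fold change was -1.20 ± 0.27 (SE), a level 0.435 of that in controls, with a p of 0.00196 and an adjusted p of 0.586 in the quasi-likelihood test of edgeR. This was the smallest p of the 33 members. The adjusted p was 0.0529 with DESeq2 and 0.0467 with the likelihood ratio test of edgeR, which alone called it. Leaving out any 1 library gave log2 fold changes from -1.41 to -0.96, among them -1.15 without *Hif1aCKO* replicate 3, and a fit with a sex term gave -1.17.

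*Casp9* (chr4:141793612-141815976, plus strand), the caspase that the apoptosome activates, had 269 and 240 normalized counts in controls and 82.6, 176, and 194 in *Hif1aCKO* replicates 3, 4, and 5. All 3 *Hif1aCKO* libraries were below both controls, and replicate 3, the library with the glial signal, was the lowest. The log2 fold change was -0.75 ± 0.38 (SE; adjusted p = 0.698 with edgeR), and it was -0.46 without *Hif1aCKO* replicate 3. The fitted level in *Hif1aCKO* libraries was 0.593 of that in controls. Neither *Apaf1* nor *Casp9* passed the quasi-likelihood test over all genes.

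The other caspases did not separate the genotypes. *Casp2*, an initiator caspase linked to DNA damage, was the most abundant of the class per kilobase, with 785 and 984 normalized counts in controls and 810, 748, and 701 in *Hif1aCKO* libraries. *Casp6*, an executioner caspase with a role in axon degeneration, had 382 and 354 in controls and 342, 319, and 391 in *Hif1aCKO* libraries. *Casp8*, the initiator that acts downstream of death receptors, did not pass the filter on low counts, with 0 and 13 counts in controls and 0, 1, and 0 in *Hif1aCKO* libraries. The 4 genes tested in this class all had lower means in *Hif1aCKO* libraries. Their log2 fold changes were -1.20 for *Apaf1*, -0.75 for *Casp9*, -0.23 for *Casp2*, and -0.07 for *Casp6*. The median was -0.49 beside 0.01 over all genes, and it rests in part on *Apaf1* and *Casp9*, already described as apart. *Casp2* and *Casp6* overlapped between genotypes.

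**Figure D2:**
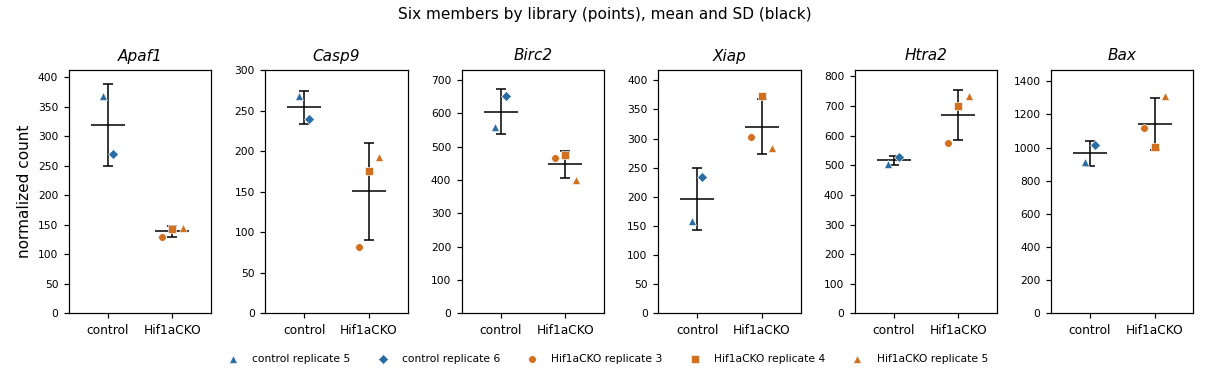
Normalized counts of *Apaf1*, *Casp9*, *Birc2*, *Xiap*, *Htra2*, and *Bax* in each library, with the mean (long bar) and SD (error bar) of the 2 control and 3 *Hif1aCKO* libraries. The genotypes do not overlap for the first 5 genes, with *Apaf1* at 270 to 369 in controls and 129 to 145 in *Hif1aCKO* libraries, and overlap for *Bax*, whose *Hif1aCKO* replicate 4 lies at 1002.

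The inhibitor of apoptosis genes differed in the direction of their values. *Xiap* (chrX:42059679-42109656, plus strand), a direct inhibitor of caspases that include caspase-9, had 159 and 235 normalized counts in controls and 302, 373, and 284 in *Hif1aCKO* replicates 3, 4, and 5. All 3 *Hif1aCKO* libraries were above both controls, with a log2 fold change of 0.70 ± 0.28 (SE; adjusted p = 0.626 with edgeR). The log2 fold change was 0.44 without control replicate 5 and 0.74 without *Hif1aCKO* replicate 3. *Xiap* lies on the X chromosome, and a fit with a sex term gave 0.67.

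*Birc2* (chr9:7818227-7837064, minus strand), which encodes the ubiquitin ligase cIAP1, had 557 and 652 normalized counts in controls and 465, 473, and 400 in *Hif1aCKO* libraries. All 3 *Hif1aCKO* libraries were lower, with a log2 fold change of -0.44 ± 0.19 (SE; adjusted p = 0.647 with edgeR). The log2 fold change was -0.47 without *Hif1aCKO* replicate 3, and leaving out any 1 library took the unadjusted p above 0.05. *Birc6*, a very large protein that joins ubiquitin ligase activity with caspase binding, had 731 and 898 in controls and 791, 977, and 914 in *Hif1aCKO* libraries and overlapped. *Birc3*, the close relative of *Birc2*, had 12 and 0 counts in controls and 0, 25, and 8 in *Hif1aCKO* libraries.

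Because *Xiap* was higher and *Apaf1* lower in the same libraries, their levels per kilobase were set against each other after their values had been seen. The level of *Xiap* over that of *Apaf1* was 0.412 and 0.829 in controls, against 2.24, 2.49, and 1.87 in *Hif1aCKO* libraries. *Apaf1* was thus the more abundant of both transcripts per kilobase in controls and *Xiap* in *Hif1aCKO* libraries. Since both genes were paired for lying apart in opposite directions, this ratio had to separate the genotypes. Neither gene was called in the quasi-likelihood test of edgeR (adjusted p = 0.586 for *Apaf1* and 0.626 for *Xiap*). For *Bax* over *Bcl2l1*, the ratio was 3.07 and 3.58 in controls and 3.69, 4.01, and 6.22 in *Hif1aCKO* libraries, so that the lowest *Hif1aCKO* library lay just above the higher control. For *Bax* over *Bcl2* the genotypes overlapped, with 28.1 and 22.4 in controls and 28.3, 23.5, and 29.9 in *Hif1aCKO* libraries. These ratios are descriptions and were not tested.

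**Figure D3:**
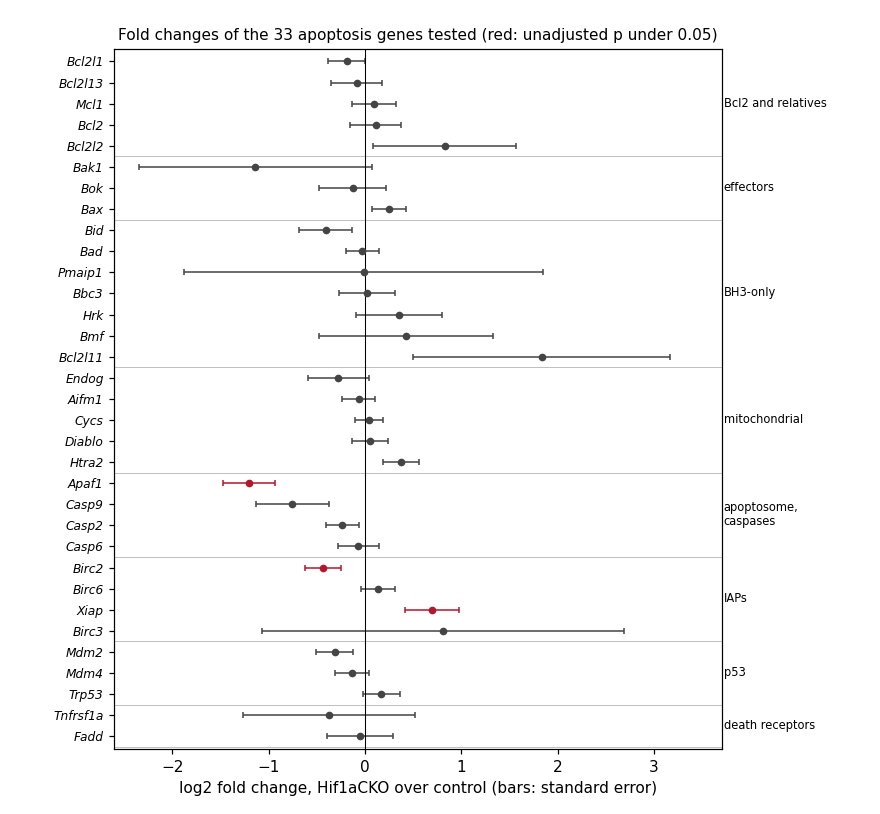
Log2 fold changes (*Hif1aCKO* over control) with their standard errors for the 33 members tested, grouped by role, with the 3 members at an unadjusted p under 0.05 in red. *Apaf1* lies at -1.20, *Birc2* at -0.44, and *Xiap* at 0.70, and the members with long bars, such as *Bcl2l11*, *Bak1*, *Pmaip1*, and *Birc3*, are those with few counts.

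The p53 gene and its regulators were well expressed. *Trp53* had 907 and 883 normalized counts in controls and 832, 992, and 1195 in *Hif1aCKO* replicates 3, 4, and 5, with a log2 fold change of 0.17 ± 0.19 (SE). *Mdm2*, the ubiquitin ligase that degrades p53 and is itself a p53 target, had 1316 and 1101 in controls and 1147, 810, and 959 in *Hif1aCKO* libraries, with a log2 fold change of -0.31 ± 0.19, or -0.45 without *Hif1aCKO* replicate 3. *Hif1aCKO* replicate 3 lay between the controls for *Mdm2*, and replicates 4 and 5 below both. *Mdm4*, which holds p53 inactive, had 1086 and 915 in controls and 882, 1017, and 837 in *Hif1aCKO* libraries. The level of *Mdm2* over that of *Trp53* per kilobase, chosen after the values were seen, was 1.15 and 0.992 in controls, 1.10 in *Hif1aCKO* replicate 3, and 0.650 and 0.639 in *Hif1aCKO* replicates 4 and 5.

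Of the death receptor members analysed, the adaptor was well detected and both receptors were scarce. *Tnfrsf21*, a death receptor outside the members, had 330 to 559 normalized counts and is described below. *Fadd*, the adaptor of death receptors, had 139 and 176 normalized counts in controls and 106, 176, and 173 in *Hif1aCKO* libraries, and its log2 fold change was -0.05, or 0.15 without *Hif1aCKO* replicate 3. *Tnfrsf1a*, which encodes a receptor for tumor necrosis factor, had 37.5 and 19.5 in controls and 30.0, 30.0, and 5.84 in *Hif1aCKO* libraries. *Tnfrsf10b*, the mouse receptor for TRAIL, did not pass the filter, with 0 and 7 counts in controls and 0, 1, and 0 in *Hif1aCKO* libraries. *Casp8*, on which these receptors depend, was likewise at or near 0 in 4 of 5 libraries.

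Summed by role, the levels per kilobase separated the genotypes in 1 of 8 classes (12.5%), beside 25.7% of single genes. The apoptosome and caspases summed to 272 and 283 in controls and to 206, 213, and 223 in *Hif1aCKO* libraries, a ratio of means of 0.770. The proteins released from mitochondria had the highest sum, at 968 and 1005 in controls and 981, 1016, and 1049 in *Hif1aCKO* libraries. The *Bcl2* class, with *Bcl2l13*, summed to 458 and 459 in controls and to 480, 379, and 496 in *Hif1aCKO* libraries, and the BH3-only genes to 482 and 493 in controls and to 416, 471, and 493 in *Hif1aCKO* libraries. For the inhibitor of apoptosis proteins the ratio of means was 0.905, with overlap between genotypes.

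**Figure D4:**
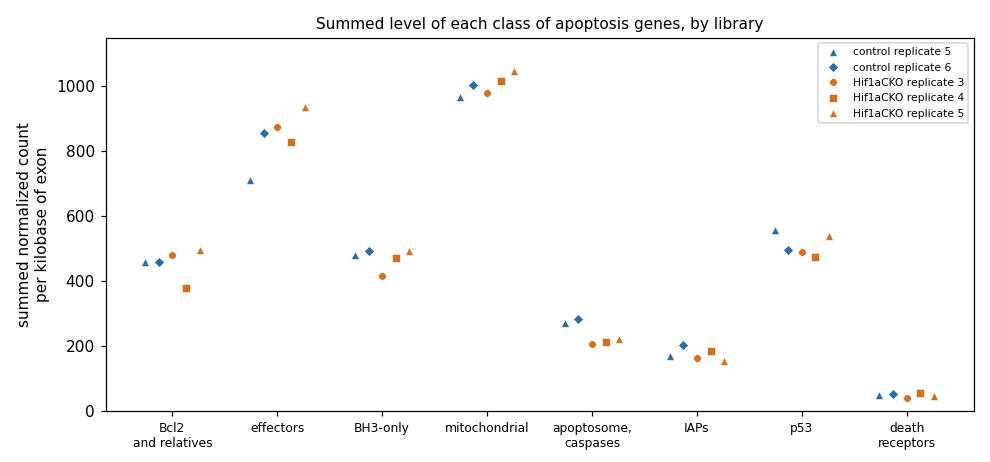
Summed normalized counts per kilobase of exon for each class of members in each library, on an axis from 0. The apoptosome and caspases are the only class in which the *Hif1aCKO* libraries (206 to 223) lie apart from the controls (272 and 283), which is 12.5% of the classes beside 25.7% of single genes.

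Other genes of these pathways were read from the same fit. Of 22 p53 target genes tested, 10 had a higher and 12 a lower mean in *Hif1aCKO* libraries, with a median log2 fold change of -0.02, and none had an unadjusted p under 0.05. The 4 of smallest p were *Aen*, a nuclease induced by p53, at -0.44, *Tigar*, a regulator of glycolysis, at -0.90, *Cdkn1a*, the cell cycle inhibitor p21, at 0.50, and *Ckap2*, a spindle protein, at 0.39. *Cdkn1a* had 441 and 329 normalized counts in controls and 545, 665, and 423 in *Hif1aCKO* libraries and overlapped. *Aen* and *Tigar* were lower and *Ckap2* higher in each *Hif1aCKO* library than in both controls.

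Of 27 other regulators of apoptosis, 1 was higher and 4 were lower at an unadjusted p of 0.05 (18.5%, beside 7.67% of all genes), and 11 did not overlap between genotypes (40.7%, beside 25.7% of all genes), 9 of them lower. *Birc5*, or survivin, an inhibitor of apoptosis protein that is also part of the mitotic machinery, had 1945 and 1538 normalized counts in controls and 2362, 2614, and 2678 in *Hif1aCKO* libraries (log2 fold change 0.55 ± 0.16, SE, adjusted p = 0.598 with edgeR). The summed G2/M genes given above were higher in the same libraries, and their part in this difference was not tested. *Bnip3*, a mitophagy receptor and textbook HIF-1 target, had 509 and 652 in controls and 445, 308, and 348 in *Hif1aCKO* libraries, with a log2 fold change of -0.66 ± 0.23 (SE). *Tnfrsf21*, which encodes death receptor 6, had 559 and 475 in controls and 400, 330, and 369 in *Hif1aCKO* libraries. *Api5*, named after its values were seen as the fourth lower gene, had a log2 fold change of -0.56.

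Sympathetic neurons depend on nerve growth factor once they reach their targets, and 20 genes of trophic signalling, of the stress kinases, and of the response to withdrawal of trophic factors were tested. Of these, 2 were higher and 1 was lower at an unadjusted p of 0.05 (15.0%, beside 7.67% of all genes), 5 did not overlap between genotypes (25.0%, beside 25.7%), and the median log2 fold change was 0.0043. *Ngfr*, which encodes the low-affinity receptor p75 and is also counted among the 27 regulators above, had 258 and 379 normalized counts in controls and 62.2, 133, and 215 in *Hif1aCKO* libraries, with a log2 fold change of -1.22 ± 0.47 (SE). All 3 *Hif1aCKO* libraries were below both controls, and replicate 3, the library with the glial signal, was the lowest. Without it the log2 fold change was -0.88.

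Among the kinases that signal loss of trophic support, *Map3k12* (DLK) had 1118 and 939 normalized counts in controls and 1198, 1700, and 1625 in *Hif1aCKO* libraries. Its log2 fold change was 0.55 ± 0.20 (SE; adjusted p = 0.621 with edgeR). *Mapk10*, named after its values were seen, was lower in each *Hif1aCKO* library, at 2076, 2321, and 1463 against 2451 and 2366 in controls. Its log2 fold change was -0.30 ± 0.20. *Mapk8*, *Mapk9*, *Map3k10*, and *Map3k11* overlapped between genotypes. *Ret*, the receptor kinase for GDNF family ligands, had 998 and 340 in controls and 1691, 884, and 1726 in *Hif1aCKO* libraries and overlapped. *Dusp1*, a phosphatase that acts on such kinases, overlapped, with a log2 fold change of -0.40. *Jun*, the transcription factor downstream of these kinases and named after its values were seen, had 813 and 632 in controls and 758, 675, and 780 in *Hif1aCKO* libraries, with a log2 fold change of 0.03. Beside these, the BH3-only genes *Bbc3* and *Hrk* and the effector *Bax* overlapped between genotypes as given above.

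**Figure D5:**
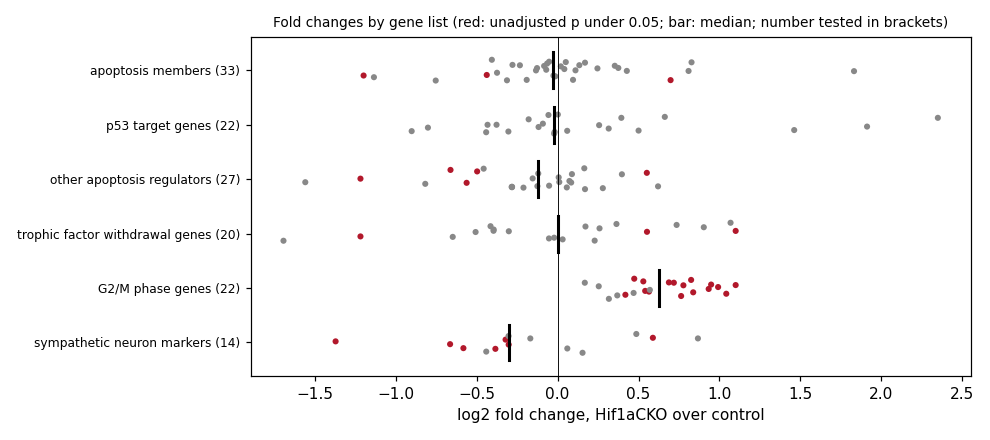
Log2 fold changes (*Hif1aCKO* over control) of the genes tested in each list, with the median as a black bar and genes at an unadjusted p under 0.05 in red. The apoptosis members and the p53 targets centre near 0 (medians -0.03 and -0.02), while the 22 G2/M genes are all above 0 (median 0.63) and the sympathetic neuron markers centre below it (median -0.30).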

How the data were processed

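Bulk RNA-seq libraries of 100 sorted E14.5 sympathetic neurons were compared between 2 control and 3 *Hif1aCKO* samples, grouped by the genotype in the labels. The authors trimmed reads (cutadapt 1.18 and Trimmomatic), removed ribosomal and vector sequences (Bowtie 1.2.2 and SortMeRNA), mapped them to GRCm38 (STAR 2.7.0c), and counted uniquely mapped reads per gene with Rsubread. The deposited values are these raw counts, 8254211 to 9700887 per library. Strand use is not stated, and Rsubread by default ignores strand and leaves out reads that overlap several genes.

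Counts were tested with edgeR (4.0.16, R 4.3.3): TMM normalization (factors 0.974 to 1.03), filterByExpr, and the quasi-likelihood test with Benjamini-Hochberg adjustment over 15032 genes. Genes were called at an adjusted p under 0.05, an absolute log2 fold change above 0.3, and 50 or more normalized counts on average. The biological coefficient of variation was 0.384. The p-values set the difference between genotypes against the spread between these samples, which the fit estimates with information shared across genes. No 2 libraries were duplicates, as the chi-square divided by its degrees of freedom was 14.2 to 35.1 between pairs. Normalized counts were scaled to the mean effective library size. Names, positions, and exon lengths came from GENCODE M21, which held 20195 of the 20224 genes, and promoters from RefSeq (34 of 38 members matched). Shares of exonic bases overlapping other genes came from the same annotation.

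The members and gene lists were chosen with earlier results of these data known. Named genes were all members, with values in each library for those at an unadjusted p under 0.05, those with groups apart and a log2 fold change beyond 0.3, the 3 highest per kilobase of each role, and those removed by the filter, and up to 4 genes of smallest p from each other list. The alternatives were DESeq2 (1.42.0), the likelihood ratio test, limma-voom (limma 3.58.1), RLE and upper-quartile factors, no filter, at least 10 counts in every library, a sex term, an adjusted p of 0.1, and leaving out each library. The test was tried on simulated counts. A gene of the trophic factor list is not reported here. A planned search of protein sequences for BH3 cores was not run. Tables and plots were made with Python (3.11.15), pandas (2.3.3), numpy (2.4.6), and matplotlib (3.10.9).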

Additional observations from a re-analysis of the deposited data

How the results depend on the processing

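DESeq2 called 60 genes and the likelihood ratio test of edgeR 40, with 0 and 1 members among them (*Apaf1*), while the quasi-likelihood test called 0 genes. RLE and upper-quartile factors, both other filters, limma-voom, the sex term, and an adjusted p of 0.1 called 0 genes and 0 members. Leaving out each library in turn gave 0 to 4 genes called, with 4 without control replicate 5, where the 1 control left is assumed to vary like the other group. The members at an unadjusted p under 0.05 were 1 to 3 when leaving out a library, with 1 without control replicate 5 or without *Hif1aCKO* replicate 4, and 2 to 4 under the other alternatives, with 4 in limma-voom. *Birc2* met it in 3 of 13 alternatives, and 1153 of all genes met it in the quasi-likelihood test. The median log2 fold change of the members ranged from -0.03 to 0.02 when leaving out a library. The 6 members whose genotypes did not overlap (18.2%) were 8 (24.2%) under upper-quartile factors and 8 on counts scaled to the total alone, beside 25.9% of all genes under each. *Apaf1*, *Casp9*, *Birc2*, *Xiap*, and *Htra2* kept their direction in all 65 refits. Their genotypes did not overlap when they were chosen, so leaving out a library could hardly turn them. Their constancy is therefore no added evidence of a difference. Over all members, 394 of 420 refitted values kept their direction, and 14 members turned at least once. *Bad* turned to 0.0095 under upper-quartile factors and *Pmaip1* to 0.078 with the sex term. Leaving out a library gave log2 fold changes from -0.11 to 0.37 for *Bcl2*, -0.10 to 0.23 for *Mcl1*, -0.22 to 0.14 for *Bcl2l13*, -0.46 to 0.30 for *Bok*, -0.10 to 0.039 for *Bad*, -0.025 to 0.088 for *Bbc3*, -0.93 to 2.98 for *Pmaip1*, -0.022 to 0.83 for *Hrk*, -0.023 to 0.12 for *Diablo*, -0.20 to 0.073 for *Aifm1*, -0.20 to 6.48 for *Birc3*, -0.0089 to 0.28 for *Birc6*, -0.22 to 0.15 for *Fadd*, and -0.78 to 0.17 for *Tnfrsf1a*. The cause of these turns was not tested. No paired analysis was possible because the genotypes share only replicate number 5. Members with few counts, such as *Bak1*, *Bcl2l11*, *Bik*, *Birc3*, and *Casp8*, limit what can be said of their class at this depth.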
